A study of Bos taurus and Sus scrofa with 10 samples.

Results

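Imprinted genes are expressed mainly from the copy inherited from a single parent, because DNA methylation set in the egg or sperm marks one copy and survives the reprogramming of the early embryo. Many of them lie in clusters, and others stand alone or in small groups. This account covers 10 imprinted genes from scattered loci: PLAGL1, DIRAS3, ZDBF2, USP29, PEG3, RB1, NDN, UBE3A, SNRPN and IGF2R. They were picked out by symbol, with no level used as a criterion but with earlier results of these data known, from tables of 22845 cow rows and 21867 pig rows. The cow table held 8 of them, with no row named USP29 or PEG3, and the pig table held 9, with no row named SNRPN, so 7 were present in both. Each present symbol had 1 row. The imprinted status of these genes is background from other work, mostly in mouse and human. RB1 is known as imprinted in human, and UBE3A is imprinted mainly in neurons. The values below sum both parental copies and carry no information on allele.

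The libraries came from total RNA of 2 species, Bos taurus (cow) and Sus scrofa (pig), at 5 stages: oocytes, 2-4 cell embryos, 8-16 cell embryos, morulae and blastocysts. Cow and pig each had 1 library per stage, 10 in all, so no difference below has a replicate check and no test against replicate spread exists. The labels give no breed, no number of oocytes or embryos per library, and no statement on whether embryos were grown in culture or flushed from animals. The series title places them in work on DNA methylation before implantation, differences between species and imprinted genes.

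A level is the number of reads on a gene among 1000000 sequenced (RPM). Such levels compare a gene between stages of its own species and not genes with each other. Read totals ran from 3002751 in the pig morula library to 14182046 in the cow blastocyst library. A count of 0 reads allows up to 3 reads, which is between 0.212 and 0.769 RPM in cow and between 0.725 and 0.999 RPM in pig. Intervals in parentheses are 95% Wilson intervals for levels and exact 95% binomial intervals for ratios, and cover counting error only. Changes are differences of log2(RPM + 1), later minus earlier stage, and a gene is said to have risen or fallen where this was at least 2 in size, a 4-fold step on that scale. Gene positions are those of the tables, in UMD3.1 for cow and Sscrofa11.1 for pig. The stage labels were checked on marker genes. All 11 measured oocyte markers fell and all 11 measured blastocyst markers rose from oocyte to blastocyst in each species. In bulk RNA a change in RNA per cell and a change in the kinds of cells present cannot be told apart, which bears on every comparison with the blastocyst. Markers of cumulus cells, which surround the oocyte, summed to 397 RPM over 12 genes in the cow oocyte library, with 51.0 to 994 RPM in the later ones, and to 117 RPM over 8 genes in the pig oocyte library, with 89.4 to 2146 RPM later. AMH, LHCGR and FOXL2 were at 0 reads in the cow oocyte library, and INHBA, PTGS2 and TNFAIP6 in the pig one. The other measured markers of these cells had reads there. In the cow blastocyst library 7 of the 12 were at 0 reads, and in the pig one 2 of 8. From oocyte to blastocyst 4 of 9 compared cow markers fell and 3 rose, and in pig 1 of 6 fell and 3 rose. The part of such cells in the oocyte values was not tested.

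PLAGL1, a zinc finger transcription factor that restrains growth, was highest in the oocyte and nearly gone at the blastocyst in both species. In cow its level was 23.5 RPM in the oocyte library (19.6 to 28.2), 21.9 RPM in 2-4 cell embryos, 3.31 RPM in 8-16 cell embryos, 3.85 RPM in morulae and 0.0705 RPM, which is 1 read, in blastocysts. The cow values formed 2 plateaus before the last drop, since the intervals of the oocyte and 2-4 cell libraries overlapped, as did those of the 8-16 cell and morula libraries. In pig PLAGL1 stood at 129 RPM (118 to 142), 72.0, 94.8, 36.6 and 0.536 RPM, the last from 2 reads. No neighbouring levels overlapped in the pig order, in which the 8-16 cell library was above the 2-4 cell library. From oocyte to blastocyst PLAGL1 fell by 4.52 in cow, a ratio of 334 (58.7 to 13293), and by 6.40 in pig, a ratio of 241 (66.2 to 1994). In cow the fall came between 2-4 and 8-16 cells (-2.41) and between morula and blastocyst (-2.18), and in pig at the last step (-4.61). Both cow steps were under 2 in size with a pseudocount of 5 RPM (-1.69 and -0.80), as was the last step with reads thinned to equal depth (-1.98), and a minimum of 5 RPM left the gene out at the last step. The cow row covers 1224 bp (chromosome 9, 82419235 to 82420458, minus strand) and the pig row 67074 bp (chromosome 1, 21303994 to 21371067, plus strand), so the rows need not hold the same parts of the gene. HYMAI, a noncoding RNA of the same imprinted locus, lies within the pig span on the other strand and had 0 reads in all 5 pig libraries. Its row is short (21304963 to 21305199), and expression outside it was not tested.

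RB1, the retinoblastoma protein that holds back entry into S phase, ran differently in cow and pig. In cow RB1 (chromosome 12, 18196465 to 18316589) was at 204 RPM in the oocyte library (192 to 217), 147 RPM in 2-4 cell embryos, 47.3 RPM in 8-16 cell embryos, 42.1 RPM in morulae and 4.72 RPM in blastocysts (3.72 to 5.999). Its level was lower at each later stage, with overlapping intervals only between the 8-16 cell and morula libraries. The fall from oocyte to blastocyst was 5.17, a ratio of 43.3 (33.8 to 56.3), and 1.94% of all compared cow genes had a more negative change. In pig RB1 (chromosome 11, 19186760 to 19317688) was at 44.1, 32.1, 73.3, 192 and 36.7 RPM in the same order of stages. The pig morula library thus stood above the other 4 libraries, and the oocyte and blastocyst intervals overlapped (37.6 to 51.8 and 31.1 to 43.4 RPM). From the pig morula to the blastocyst RB1 fell by 2.36, a ratio of 5.24 (4.34 to 6.36). LPAR6, a receptor gene that lies inside RB1 on the opposite strand, had at most 4.66 RPM in any library. In the cow blastocyst library it had 31 reads beside the 67 reads of RB1, and since the handling of strand is not stated, reads of the overlapping stretch cannot be told apart there.

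**Figure D1:**
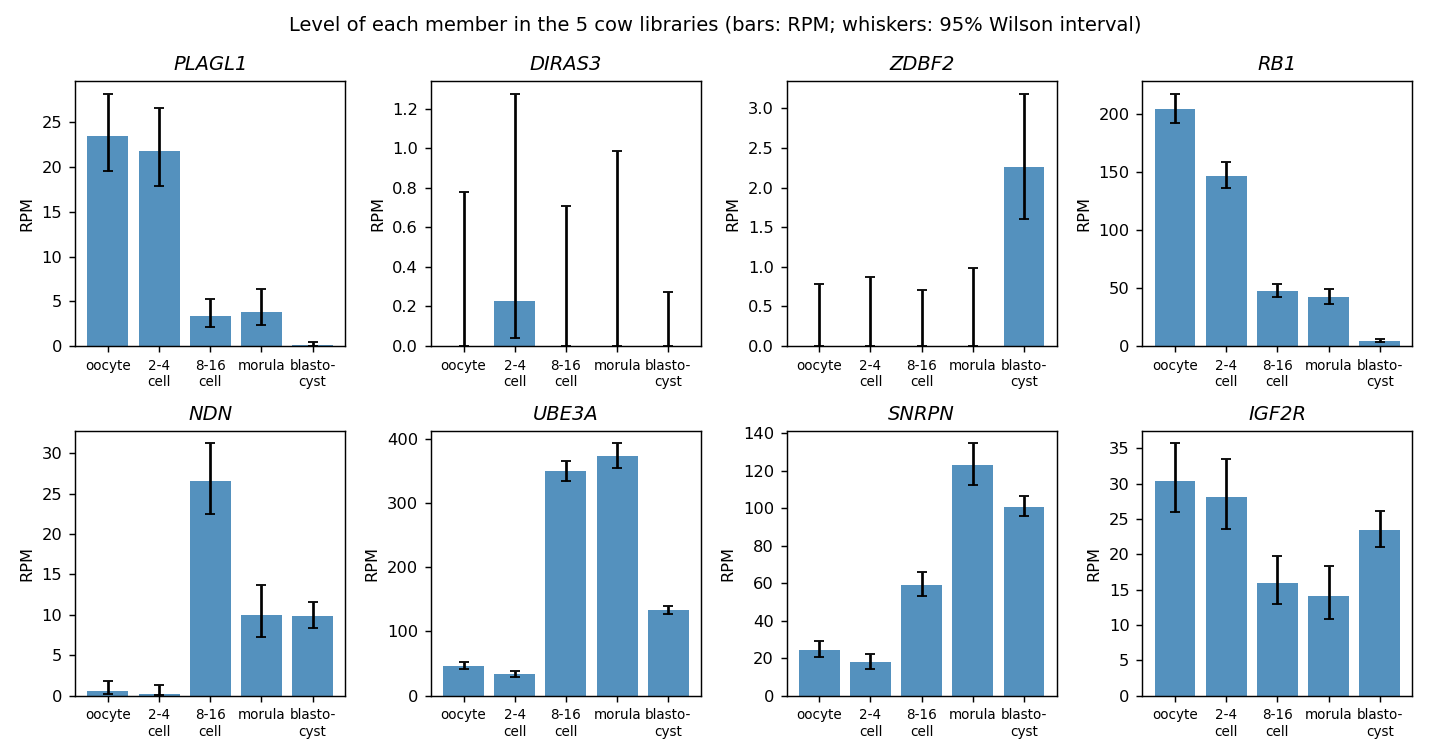
Levels of the 8 members in the cow table. Each panel is a gene, the horizontal axis gives the 5 stages, the vertical axis gives RPM on its own linear scale from 0, bars are single libraries and whiskers are 95% Wilson intervals. PLAGL1 and RB1 are highest in the oocyte library, NDN in the 8-16 cell library at 26.5 RPM, and DIRAS3 has 1 read in all.

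PEG3 and USP29 share an imprinted region in which PEG3, a large zinc finger protein, and USP29, a protease that removes ubiquitin, are read in opposite directions. The pig rows lie on chromosome 6, PEG3 at 61283952 to 61307765 on the minus strand and USP29 at 61516685 to 61519361 on the plus strand. PEG3 was at 0.296 RPM (1 read) in the oocyte library, 0.967 RPM (4 reads) in 2-4 cell embryos, 4.42 RPM in 8-16 cell embryos, 15.3 RPM in morulae (11.5 to 20.4) and 6.70 RPM in blastocysts (4.54 to 9.90). The blastocyst level of PEG3 overlapped that of the 8-16 cell library, and the first 2 stages overlapped too. USP29 was at 0.296 RPM (1 read), 18.8 RPM (15.1 to 23.5), 31.6 RPM, 87.9 RPM (77.9 to 99.2) and 0 reads. It was present in the 3 cleavage and morula libraries and at or under 1 read at both ends.

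USP29 rose by 3.94 from the pig oocyte to the 2-4 cell stage, a ratio of 63.7 (11.09 to 2546), and 99.8% of the compared genes had a lower change at that step. From the morula to the blastocyst it fell by 6.16, with an exact lower limit of 88.3 for the ratio. At that step 0.103% of the compared genes had a lower change. PEG3 rose over the whole course by 2.57, a ratio of 22.6 (3.71 to 929.5) over a single oocyte read. This change was 1.14 with a pseudocount of 5 RPM and 1.86 with quantile normalisation. PEG3 was the only one of the pair with a call there, because USP29 had no more than 1 read in both libraries. ZIM3, a zinc finger gene 5.91 kb from USP29 on the other strand, went from 0.888 RPM (3 reads) through 5.56, 47.7 and 184.8 RPM to 52.8 RPM. ZIM2, 101 kb from PEG3 on the same strand, was at 61.9, 67.7 and 75.8 RPM in the first 3 libraries and at 4.33 and 4.56 RPM in the last 2. The region thus held genes that were highest in the morula library beside one that was highest before it. The row MIMT1_1 (61307944 to 61308026), which lies 179 bp from PEG3, had 0 reads in all 5 pig libraries. The row is short, and expression outside it was not tested.

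**Figure D2:**
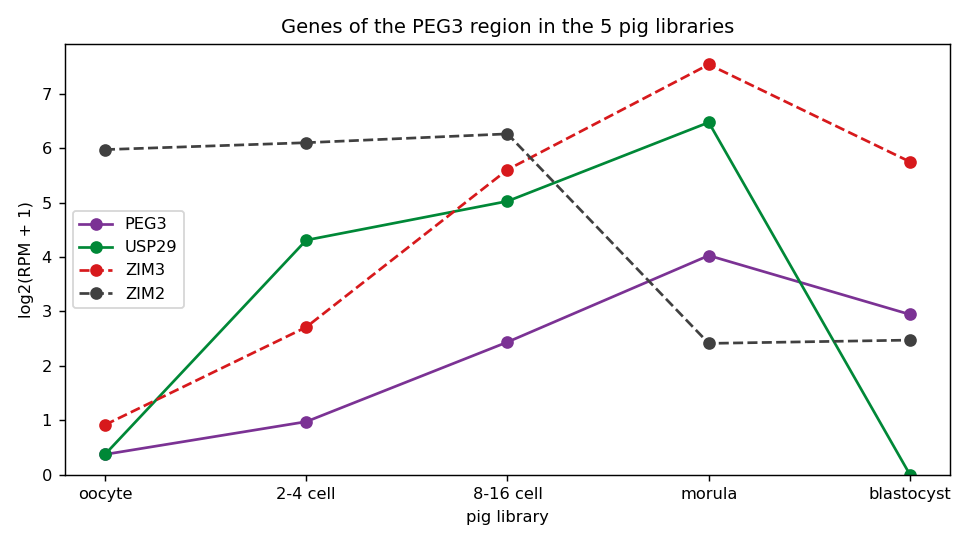
Levels of PEG3, USP29, ZIM3 and ZIM2 in the 5 pig libraries. The horizontal axis gives the stage and the vertical axis log2(RPM + 1), with solid lines for the 2 members and dashed lines for their neighbours, each point being 1 library. PEG3, USP29 and ZIM3 reach their highest level in the morula library, and USP29 has 0 reads in the blastocyst library while ZIM3 keeps 52.8 RPM.

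NDN, UBE3A and SNRPN belong to the region that is altered in Prader-Willi and Angelman syndromes. NDN encodes necdin, a MAGE family protein that restrains cell growth, UBE3A a ligase that attaches ubiquitin to proteins, and SNRPN a core protein of the spliceosome. All 3 were low in the first 2 cow libraries and higher from the 8-16 cell stage on. Cow NDN (chromosome 21, 736183 to 737792) had 3 reads, 1 read, 26.5 RPM (22.5 to 31.2), 10.0018 RPM and 9.87 RPM. It rose by 4.49 at the step to the 8-16 cell stage, a ratio of 118 (20.8 to 4679), and its last 2 levels overlapped. In pig NDN (chromosome 1, 142412565 to 142414242) had 0 reads in the first 3 libraries, 6.66 RPM in the morula library (4.31 to 10.3) and 19.8 RPM in the blastocyst library (15.8 to 24.9). Pig NDN rose by 2.58 at the step to the morula, with an exact lower limit of 5.21 for the ratio. The change was 1.14 with a pseudocount of 5 RPM. NDN was therefore first above 3 reads at the 8-16 cell stage in cow and at the morula in pig. Its neighbour MAGEL2, another MAGE family gene of the region, had 0 reads in all 10 libraries.

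Cow UBE3A (chromosome 21, 2346814 to 2410193) was at 46.5 RPM in the oocyte library, 33.3 RPM in 2-4 cell embryos, 349 RPM in 8-16 cell embryos (333 to 365), 373 RPM in morulae (354 to 393) and 133 RPM in blastocysts. It rose by 3.35 at the step to the 8-16 cell stage, a ratio of 10.5 (8.85 to 12.5), and the 2 highest libraries had overlapping intervals. Pig UBE3A (chromosome 1, 141887132 to 141986547) was at 20.1, 58.7, 125, 495 and 159 RPM, with no overlap between neighbouring levels. Its steps up to the morula were 1.50, 1.07 and 1.98, none of which reached 2, while the change from oocyte to blastocyst was 2.92, a ratio of 7.90 (6.14 to 10.3). At the first step cow UBE3A had a difference of -0.47 and pig UBE3A one of 1.50. HERC2, which encodes a large protein that binds the UBE3A ligase, rose in cow (55.4 to 325 RPM) and in pig (18.1 to 87.1 RPM) over the whole course. MAGED1, a further MAGE family gene, rose in cow from 0.609 RPM (3 reads) to 57.9 RPM and in pig from 6.22 to 27.9 RPM, the pig change lying just past 2.

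SNRPN was present in the cow table only (chromosome 21, 2566 to 25936). Its level was 24.5 RPM in the oocyte library, 17.8 RPM in 2-4 cell embryos, 59.3 RPM in 8-16 cell embryos, 123 RPM in morulae (113 to 135) and 101 RPM in blastocysts (95.8 to 106). The last 3 libraries were above the first 2 without overlap. The change from oocyte to blastocyst was 1.996, just under the 4-fold line, with a ratio of 4.11 (3.41 to 4.99). SNRPB, a related gene whose protein takes the same place in the spliceosome, rose from 0.406 RPM (2 reads) to 20.2 RPM in cow. How reads that match both genes were placed is not stated, so the values of this pair are uncertain to that extent.

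ZDBF2, a zinc finger gene, was not detected in the oocyte library of either species at this depth. In cow (chromosome 2, 95040253 to 95053251) it had 0 reads in the first 4 libraries and 2.26 RPM, which is 32 reads, in the blastocyst library (1.60 to 3.19). The cow change from oocyte to blastocyst was 1.46, with an exact lower limit of 2.85 for the ratio. In pig (chromosome 15, 109563345 to 109589700) ZDBF2 had 0 reads, then 1.93 RPM (8 reads), 1.58 RPM (5 reads), 44.96 RPM (38.0 to 53.2) and 31.1 RPM (25.9 to 37.3). Pig ZDBF2 rose by 4.16 at the step to the morula, a ratio of 28.5 (11.9 to 89.1). GPR1, the neighbour of ZDBF2 and a receptor gene, was at 14.7 RPM in the pig morula library and at no more than 1.88 RPM in the other 4 pig libraries.

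DIRAS3, a small GTPase that restrains growth, was measurable in pig only. In cow (chromosome 3, 77571199 to 77573843) it had 1 read at the 2-4 cell stage and 0 reads in the other 4 libraries. In pig (chromosome 6, 144576365 to 144578816) it was at 2.37 RPM (8 reads), 1.21 RPM (5 reads), 0.316 RPM (1 read), 74.9 RPM (65.8 to 85.4) and 9.92 RPM (7.20 to 13.7). The pig morula library was above the other 4, and the first 3 overlapped. DIRAS3 rose by 5.85 at the step to the morula, a ratio of 237 (42.1 to 9412), with 99.97% of the compared genes having a lower change, and fell by 2.80 at the next step, a ratio of 7.55 (5.32 to 11.01). DIRAS2, a relative of DIRAS3, was at 115 RPM in the cow oocyte library and fell to 8.95 RPM at the blastocyst, while DIRAS1 had at most 1 read in any cow library.

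IGF2R is the receptor that carries IGF2 and proteins tagged with mannose-6-phosphate to the lysosome. In cow (chromosome 9, 97638172 to 97740003) it was at 30.4 RPM in the oocyte library (25.9 to 35.7), 28.2, 16.02, 14.1 and then 23.4 RPM in the blastocyst library (21.02 to 26.1). No cow step reached 2, and the highest level was 2.16 times the lowest. In pig (chromosome 1, 7368103 to 7472548) it was at 31.98, 8.46, 14.2, 63.6 and 309 RPM (292 to 327). Pig IGF2R was lower in 2-4 cell embryos than in oocytes (-1.80), rose by 2.09 at the step to the morula and by 2.26 at the step to the blastocyst, and reached a ratio of 9.66 (7.92 to 11.9) over the whole course. The step to the morula was under 2 with median scaling (1.83), with quantile normalisation (1.96) and with a pseudocount of 5 RPM (1.84). The cow change from oocyte to blastocyst was -0.36, and 0.02 when reads were scaled to non-mitochondrial gene reads. The mitochondrial share of reads was 4.40% in cow oocytes and 30.2% in cow blastocysts. Its ligand gene IGF2 had at most 2 reads in any cow library.

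**Figure D3:**
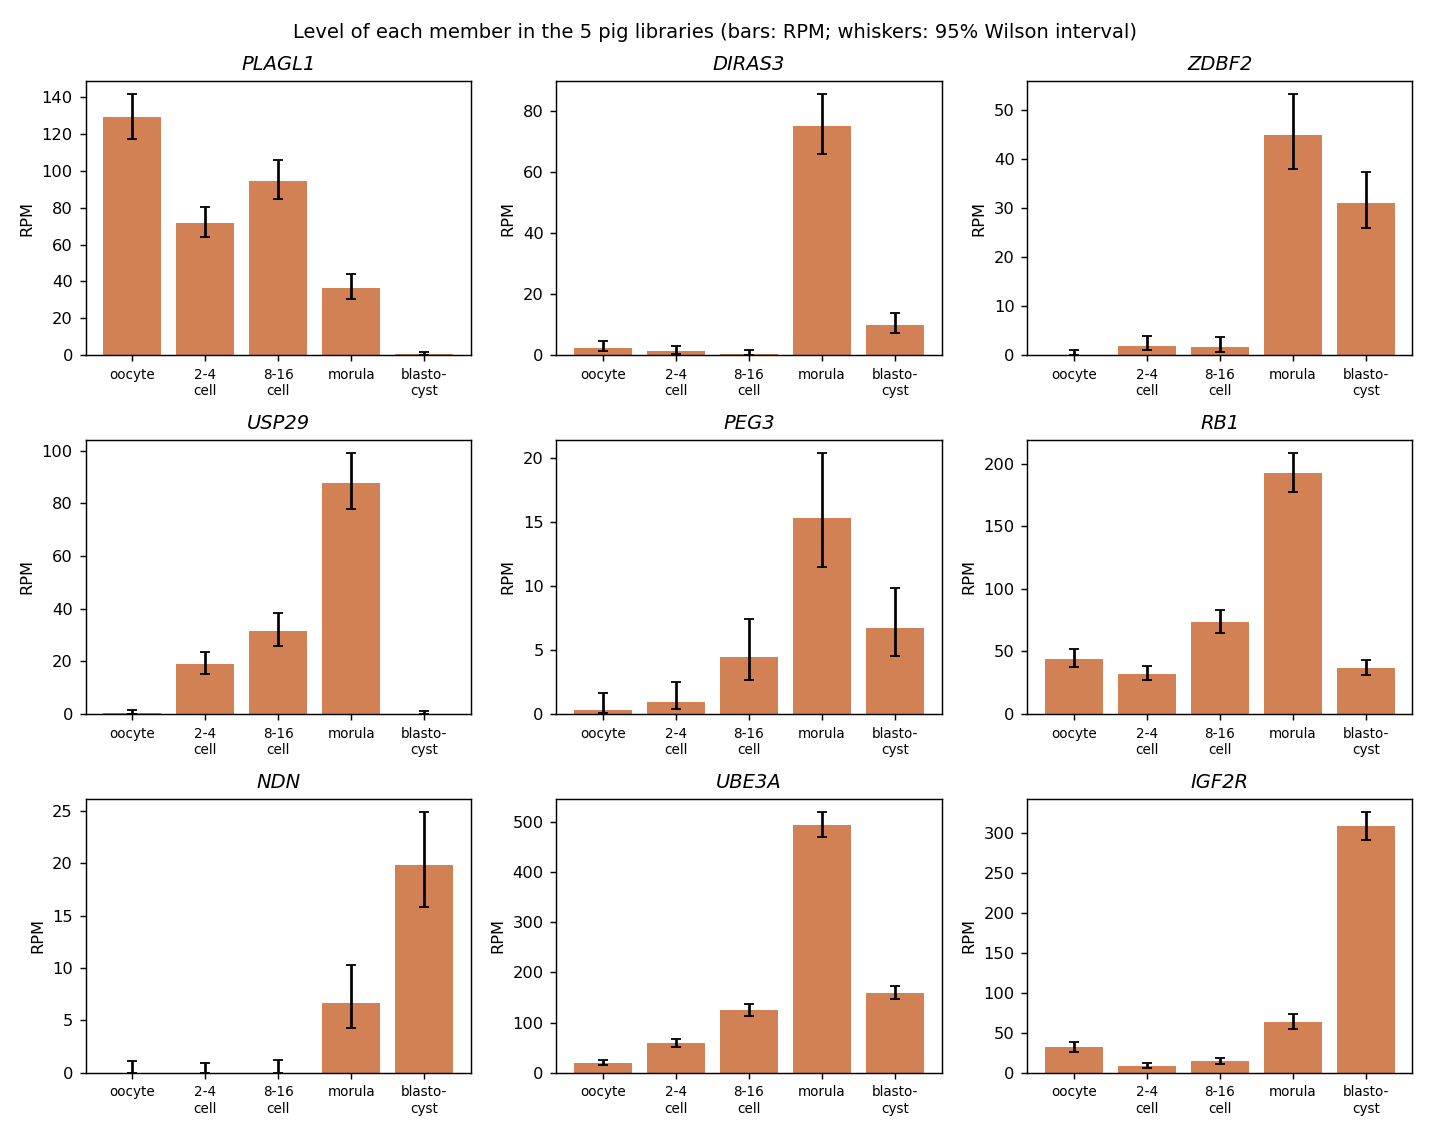
Levels of the 9 members in the pig table. Each panel is a gene, the horizontal axis gives the 5 stages, the vertical axis gives RPM on its own linear scale from 0, bars are single libraries and whiskers are 95% Wilson intervals. The morula library is the highest for DIRAS3, ZDBF2, USP29, PEG3, RB1 and UBE3A, and the blastocyst library for NDN and IGF2R.

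The members were then counted by the stage of their highest level. In pig 6 of 9 members were highest in the morula library, against 24.5% of the 14050 pig genes that reached 1 RPM anywhere. NDN and IGF2R were highest in pig blastocysts, as were 32.6% of those genes, and PLAGL1 in pig oocytes, as were 18.5%. In cow 7 members reached 1 RPM. Of these, PLAGL1, RB1 and IGF2R were highest in the oocyte library, NDN in the 8-16 cell library, UBE3A and SNRPN in the morula library and ZDBF2 in the blastocyst library, where the shares of all 14078 genes were 11.3%, 15.5%, 19.4% and 27.6% for these stages. The 2 highest libraries overlapped for cow PLAGL1, UBE3A and IGF2R, so their place is not fixed by these reads.

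Counts of changed members were set beside all compared genes at each step, where a gene was compared if either library had at least 1 RPM. Between cow oocytes and 2-4 cell embryos 0 of 5 compared members changed, against 0.374% of all compared genes. All 5 had negative differences there, between -0.48 and -0.10, where 66.8% of all compared genes had positive ones. Between the 2-4 and 8-16 cell libraries 3 of 6 cow members changed, against 27.2%: NDN and UBE3A rose, as did 12.6% of all genes, and PLAGL1 fell, as did 14.6%. At the cow step to the morula 0 of 6 changed, against 11.8%. At the cow step to the blastocyst PLAGL1 and RB1 fell, 2 of 7 compared, where 23.4% of all genes changed and 11.5% fell. In pig 1 of 7 compared members, USP29, changed at the first step, where 5.43% of all genes changed and 3.26% rose, and 0 of 8 changed at the second, against 4.87%. At the pig step to the morula DIRAS3, ZDBF2, NDN and IGF2R rose, 4 of 9, and none fell, where 23.3% of all genes changed and 12.0% rose. There 8 of 9 members had positive differences, against 53.7% of all genes, with a median of 1.98 against 0.18. At the pig step to the blastocyst 5 of 9 changed, against 27.6%: PLAGL1, DIRAS3, USP29 and RB1 fell and IGF2R rose, where 13.8% of all genes fell and 13.8% rose. The median there was -1.63 for the members and -0.11 for all genes. With 9 or fewer members per count, 1 gene moves a share by more than 10 percentage points.

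**Figure D4:**
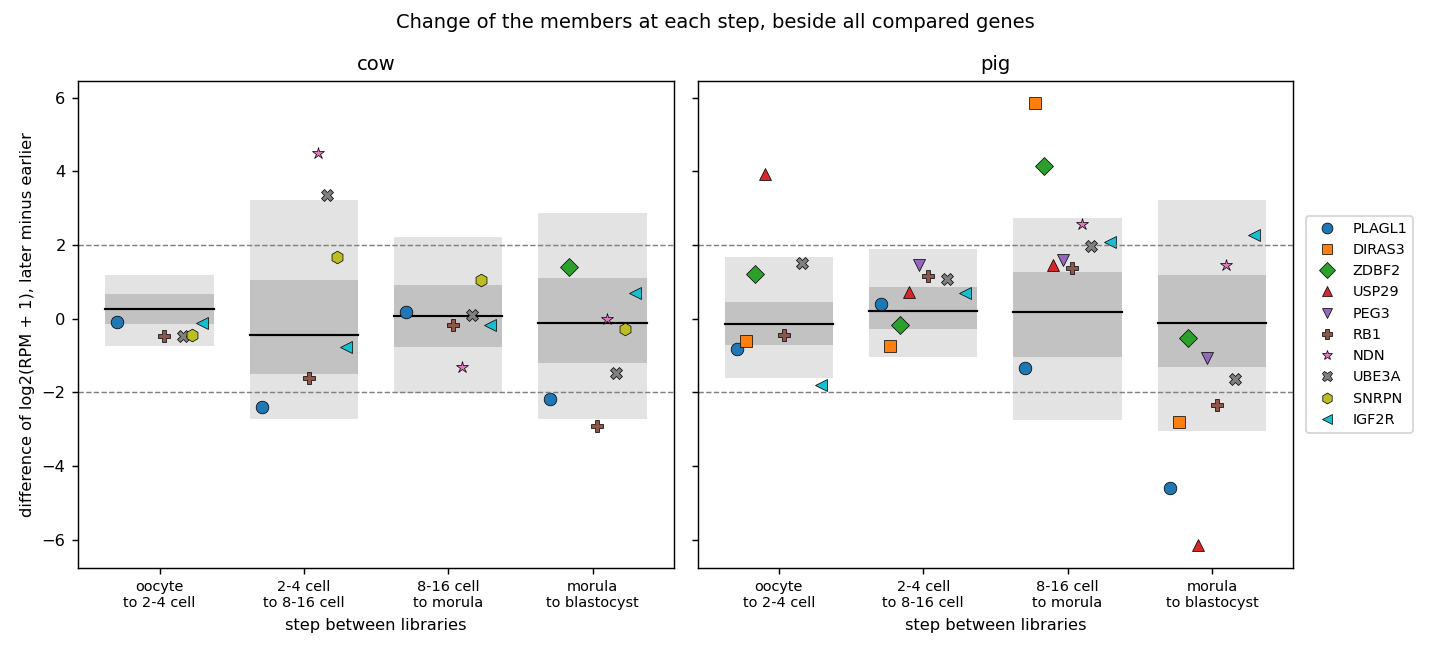
Change of each compared member at the 4 consecutive steps in cow and pig. The vertical axis is the difference of log2(RPM + 1), later minus earlier, symbols are members, dark and light grey bands hold the middle 50% and 90% of all compared genes, the black line is their median and dashed lines mark 2 and -2. At the pig step to the morula DIRAS3 (5.85) and ZDBF2 (4.16) lie above the band of 90%, and at the step to the blastocyst USP29 (-6.16) and PLAGL1 (-4.61) lie below it.

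With blastocysts set against oocytes 3 of 7 compared cow members changed, against 40.2% of all compared cow genes: NDN rose, as did 21.8% of all, and PLAGL1 and RB1 fell, as did 18.4%. In pig 6 of 8 changed, against 45.2% of all compared pig genes: ZDBF2, PEG3, NDN, UBE3A and IGF2R rose, as did 26.0% of all, and PLAGL1 fell, as did 19.2%. The median difference of the members was 1.46 in cow and 2.75 in pig, where that of all compared genes was 0.18 and 0.43. With reads scaled to non-mitochondrial gene reads, 5 cow members changed, since ZDBF2 (2.09) and SNRPN (2.41) then passed 2, against 44.1% of all genes, whose median shifted by 0.42. Of 6 members compared in both species 5 had the same sign, and the share of all genes with the same sign was not counted. PLAGL1 fell and NDN rose past 2 in both (NDN was at 2.76 in cow, and at 1.41 with a pseudocount of 5 RPM), ZDBF2 and UBE3A passed 2 in pig and had 1.46 and 1.50 in cow, and RB1 passed -2 in cow and had -0.26 in pig, where the interval of its ratio included 1. IGF2R had opposite signs as deposited, and the same sign when cow reads were scaled to non-mitochondrial gene reads. Between 2-4 and 8-16 cells 3 of 4 members compared in both species had opposite signs, with exact ratio intervals that left out 1. PLAGL1, RB1 and IGF2R were lower in cow and higher in pig. The medians of all compared genes also had opposite signs at this step, -0.44 in cow and 0.21 in pig. No share of all genes with opposite signs was counted. Pig PLAGL1 was at 0.05 with median scaling. For pig IGF2R an interval made from both Wilson intervals included 0 (-0.13 to 1.50).

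**Figure D5:**
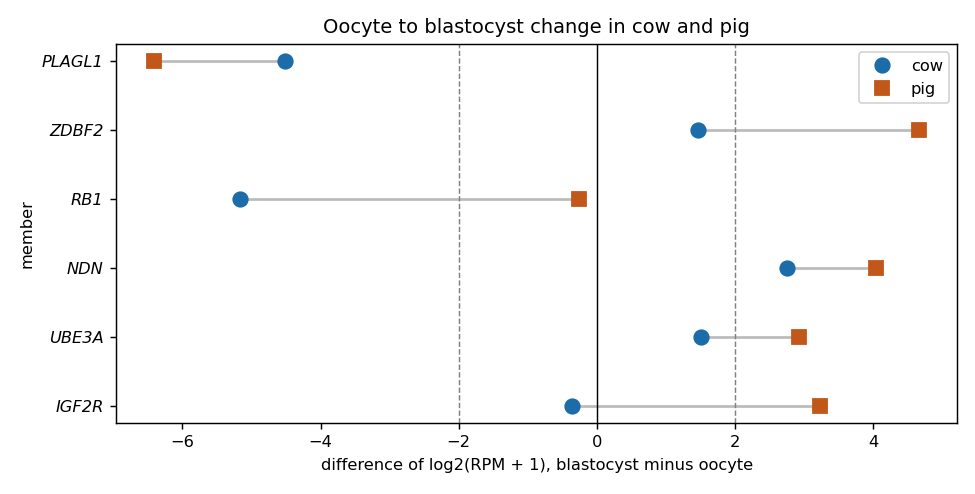
Oocyte to blastocyst change of the 6 members compared in both species. The horizontal axis is the difference of log2(RPM + 1), blastocyst minus oocyte, circles are cow and squares are pig, each from 2 single libraries, and dashed lines mark 2 and -2. PLAGL1 and NDN lie past a dashed line on the same side in both species, and RB1 is at -5.17 in cow and -0.26 in pig.

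Genes related to the members, and genes listed for the same loci, were counted from fixed lists of symbols. Of the relatives and binding partners 7 of 20 compared rose and 2 fell from the cow oocyte to the blastocyst, and in pig 5 of 14 rose and 2 fell. Of all compared genes 21.8% rose and 18.4% fell in cow, and 26.0% rose and 19.2% fell in pig. The medians of these relatives were 1.04 in cow, against 0.18 for all genes, and 0.74 in pig, against 0.43. GGA1 and GGA2, adaptors that sort mannose-6-phosphate receptors such as IGF2R, rose in both species, GGA2 being at 17.04 and 114 RPM at the ends of the cow course and at 10.7 and 311 RPM in pig. PLAGL2, a relative of PLAGL1, fell in pig from 233 to 5.90 RPM and was at 3.85 and 1.34 RPM in cow (-1.05). PLAG1 fell in cow from 19.5 to 1.34 RPM. RBL2, a pocket protein like RB1, fell in pig from 646 to 133 RPM and was at 71.6 and 26.2 RPM in cow. Among genes listed for the same loci 3 of 10 compared rose and 0 fell in cow, and 3 of 8 rose and 2 fell in pig. Their medians were 1.22 and 1.43. The risers include HERC2 in both species. Its rows lie on cow chromosome 2 and pig chromosome 15, whereas UBE3A lies on cow chromosome 21 and pig chromosome 1. ITM2B, next to RB1, rose from 3.85 to 233 RPM in cow, where RB1 fell, and RCBTB2, 3.05 kb from RB1, fell from 321 to 16.9 RPM in pig, where the intervals of RB1 overlapped between those libraries. Of the imprinted genes of other regions 6 of 30 compared rose and 6 fell in cow, and 9 of 26 rose and 4 fell in pig, with medians of 0.58 and 1.12. The cow shares of that list were close to those of all compared genes.

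The profiles most like those of 4 members were searched over all 10 libraries among shared symbols with a mean of at least 5 RPM in each table. Likeness was the Euclidean distance between log2(RPM + 1) profiles centred within each species, a description that says nothing of shared control. RB1 was closest to TRAK2, at a distance of 0.924 where the median over all searched symbols was 5.37, followed by NMD3 and ZNF226. PLAGL1 was closest to CACNA1E (1.16, median 7.02), then GNB5 and FOXR1. UBE3A was closest to LIX1 (1.12, median 5.54), PLCL1 and DHX15, and NDN to CMC2 (1.59, median 6.11), TIMM10 and GORAB.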

How the data were processed

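RNA was measured in 10 libraries, 1 per stage and species. Per the labels' protocols, RNA was isolated with PicoPure, amplified with Ovation RNA-Seq V2 and given 8 PCR cycles; molecular identifiers are not mentioned. Per the submitters' processing notes, Trim Galore 0.6.4, HISAT2 2.1.0, UMD3.1 (a cow build) and Sscrofa11.1 (a pig build) were used, and coordinates are taken to be in these builds. Counting, annotation, strand and duplicates are not given in the sources used here. The deposited values are log2 reads per 1000000 reads, scaled by the authors; this was read from the values, of which at least 99.977% in each column were whole reads (within 0.05), with 0 reads written as 0.9 of a read.

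Reads were recovered from the values. Levels give 0 reads as 0; differences keep 0.9 of a read and add 1 RPM. Python 3.11.15, numpy 2.4.6, pandas 2.3.3 and scipy 1.17.1 were used, and the calls were checked on simulated data. That check cannot measure spread between real libraries, and its result is not given here. Named are all members, their nearest named neighbours, the 3 most alike profiles of members whose range was at least 2 in both species; list genes were to be at most 4 per list, but more than 4 are named of the relatives list and of the same-locus list, most of them after their values were seen. Not every gene this rule covers is reported here. HERC2 and MAGEL2 stand in 2 lists, as does IGF2. Members and lists were chosen with earlier results of these data known. Alternatives were other pseudocounts, minimums, thresholds, scalings, equal depth, summed symbols and, chosen after seeing the data, 0 reads as 0 RPM.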

Additional observations from a re-analysis of the deposited data

Results flagged for a closer look

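Cow and pig members with differences of opposite sign at the same comparison, each with an exact 95% interval of its ratio that leaves out 1, are listed here. The wider interval made from both Wilson intervals, used below for the alternatives, includes 0 for IGF2R in cow from oocyte to blastocyst and in pig between 2-4 and 8-16 cells. With 1 library per stage every difference between the species was untested. From oocyte to blastocyst the difference of IGF2R was -0.36 in cow and 3.23 in pig. Between oocytes and 2-4 cell embryos the difference of UBE3A was -0.47 in cow and 1.50 in pig. Between 2-4 and 8-16 cell embryos the difference of PLAGL1 was -2.41 in cow and 0.39 in pig, that of RB1 -1.61 in cow and 1.16 in pig, and that of IGF2R -0.78 in cow and 0.69 in pig. From the 8-16 cell stage to the morula that of NDN was -1.32 in cow and 2.58 in pig. From the morula to the blastocyst that of ZDBF2 was 1.40 in cow and -0.52 in pig. The pig PLAGL1 value was 0.05 with median scaling. The cow IGF2R difference from oocyte to blastocyst was 0.02 with reads scaled to non-mitochondrial gene reads. Each of the 7 pairs holds at least 1 difference under 2 in size.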

How the results depend on the processing

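No paired analysis was possible because each stage had 1 library, and for the same reason no replicate could be left out. Counts of changed members moved by more than 1.5 times as follows. A threshold of 1 gave 6 cow members for oocyte to blastocyst in place of 3, 5 in place of 3 for the 2-4 cell to 8-16 cell step, 2 in place of 0 for the step to the morula and 4 in place of 2 for the step to the blastocyst; in pig it gave 4 in place of 1, 3 in place of 0, 9 in place of 4 and 8 in place of 5 for the 4 steps in order. Of all genes that threshold called 70.4%, 62.9%, 42.0% and 56.9% in these cow comparisons and 27.3%, 25.4%, 56.4% and 59.8% in these pig ones. A pseudocount of 0.5 RPM gave 5 cow members for oocyte to blastocyst (46.6% of all genes), and so did scaling to non-mitochondrial gene reads (44.1%). A pseudocount of 5 RPM gave 1 cow member for the step to the blastocyst (9.82%) and 2 pig members for the step to the morula (11.8%). A minimum of 5 RPM (27.9%) and equal depth (22.5%) each gave 1 cow member for the step to the blastocyst. Of 680 member differences under 8 alternatives, 635 stayed within a counting interval made from both Wilson intervals, 45 moved beyond it and 0 of those called changed sign. The 85 values with summed symbols could not move, because each present member had 1 row. Members at or near 0 reads in both libraries, such as cow DIRAS3, are also among the 635. The 635 are therefore no measure of robustness on their own. Among 61 differences whose ratio interval left out 1, scaling turned the sign of 2: cow IGF2R from oocyte to blastocyst (-0.36 to 0.02, non-mitochondrial gene reads) and cow SNRPN from morula to blastocyst (-0.28 to 0.06, quantile normalisation). The median of all genes from oocyte to blastocyst shifted by 0.42 in cow with scaling to non-mitochondrial gene reads and by -0.41 in pig with quantile normalisation. Of all genes called, the higher share moved with median scaling from 52.4% to 23.8% for cow oocyte to 2-4 cell, 46.5% to 61.0% for cow 2-4 to 8-16 cell, and in pig from 60.0% to 76.1%, 88.9% to 74.2% and 51.7% to 41.1% for the first 3 steps; quantile normalisation gave 24.4% for the first cow and 62.7% for the second pig step. Depth leaves levels under 0.212 to 0.999 RPM, by library, not detectable.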
